A study of Oryza sativa with 21 samples.

Results

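The genes described here are those whose transcript level stood on the same side of the wild type (WT) in all 6 transgenic rice lines of the series, 3 that overexpress NRP and 3 in which NRP was targeted with CRISPR/Cas9. Deposited counts were divided by the library total and multiplied by 1000000 (CPM, the level used throughout) and averaged over the 3 libraries of each line. Identifiers starting with OS were kept if at least 1 line mean reached 2 CPM, which left 17183 of 91080 identifiers. A gene was a member if log2((line mean + 0.5)/(WT mean + 0.5)) was at least 0.8 in each of the 6 lines, or at most -0.8 in each. The rule gave 24 members, 19 higher than WT (0.111% of the kept identifiers) and 5 lower (0.0291%). The members were thus chosen by the ratios to WT, so those ratios are given as a description, without a test.

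RNA came from the second leaf from the top of field-grown rice (Oryza sativa) at heading, collected in the morning. The groups were WT, 3 lines that overexpress NRP (OE-4, OE-3 and OE-2, called OE lines) and 3 lines labelled as NRP knockouts made with CRISPR/Cas9 (C-16, C-14 and C-13, called CRISPR lines), with 3 libraries per line. Not given in the sources used here are the cultivar, the promoter of the OE construct, the edits, whether a line descends from 1 plant and whether leaves were pooled. All 6 lines were compared with the same 3 WT libraries, so the 6 ratios of a gene share their WT value. The labels do not say whether replicates are separate plants, so variation among the libraries of a line may be technical. In the main test of OE against CRISPR lines the error is the spread between lines. In the test among the 6 transgenic lines it is the spread between these libraries.

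Overexpression adds transcript of a target gene from an introduced construct, whereas Cas9 cuts the target and imprecise repair leaves small changes that can disrupt the protein while its transcript is still made. Lines of either kind are usually regenerated from transformed tissue and carry introduced DNA with a selectable marker. In the title of the series NRP1 is named for a negative effect on leaf photosynthesis.

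Rice locus identifiers of this form carry the chromosome in the digits after OS and the order along it in the digits after G. The reference table matched 1 identifier of the count table and 0 of the 24 members, so no member is given a gene name or a role, and each is called by its locus. Levels in CPM are not corrected for transcript length and are therefore compared between samples, not between genes. In leaf as a whole, fewer cells of a type and less transcript per cell cannot be told apart.

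Library totals ran from 13788243 to 19032786 counts. The files do not pair NRP1 with an identifier. For OS07G0471900, taken as NRP1 from knowledge of the study, the mean was 2.54 ± 0.58 CPM in WT, between 301 and 372 in the OE lines and between 2.11 and 3.09 in the CRISPR lines (n = 3 libraries each), so the counts separated the OE labels from WT and not the CRISPR labels. The summed level of 5 leaf loci listed from general knowledge was 53912 to 68417 CPM in WT, 47658 to 62909 in OE libraries and 63286 to 69655 in CRISPR libraries. The summed levels of loci listed for seed storage, floral organs and dividing cells reached at most 7.19, 41.1 and 0.455 CPM, and their part in the results was not tested.

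Members had to pass in all 6 lines, so by the rule each line alone had at least as many identifiers past the threshold. On the higher side these were 0.925% of the kept identifiers in OE-2, 1.02% in OE-4, 1.32% in OE-3, 1.33% in C-13, 1.43% in C-16 and 1.51% in C-14. On the lower side they were 0.338% in OE-4, 2.22% in OE-2, 2.93% in C-14, 4.28% in C-13, 4.55% in C-16 and 4.95% in OE-3. The lines differed more on the lower side than on the higher side. OE-4 had 58 identifiers at or under -0.8, the fewest of the 6 lines, and without the requirement on OE-4 the lower members numbered 20 instead of 5. The median log2 ratio of all kept identifiers lay between -0.12 (C-16) and 0.06 (OE-4).

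**Figure D1:**
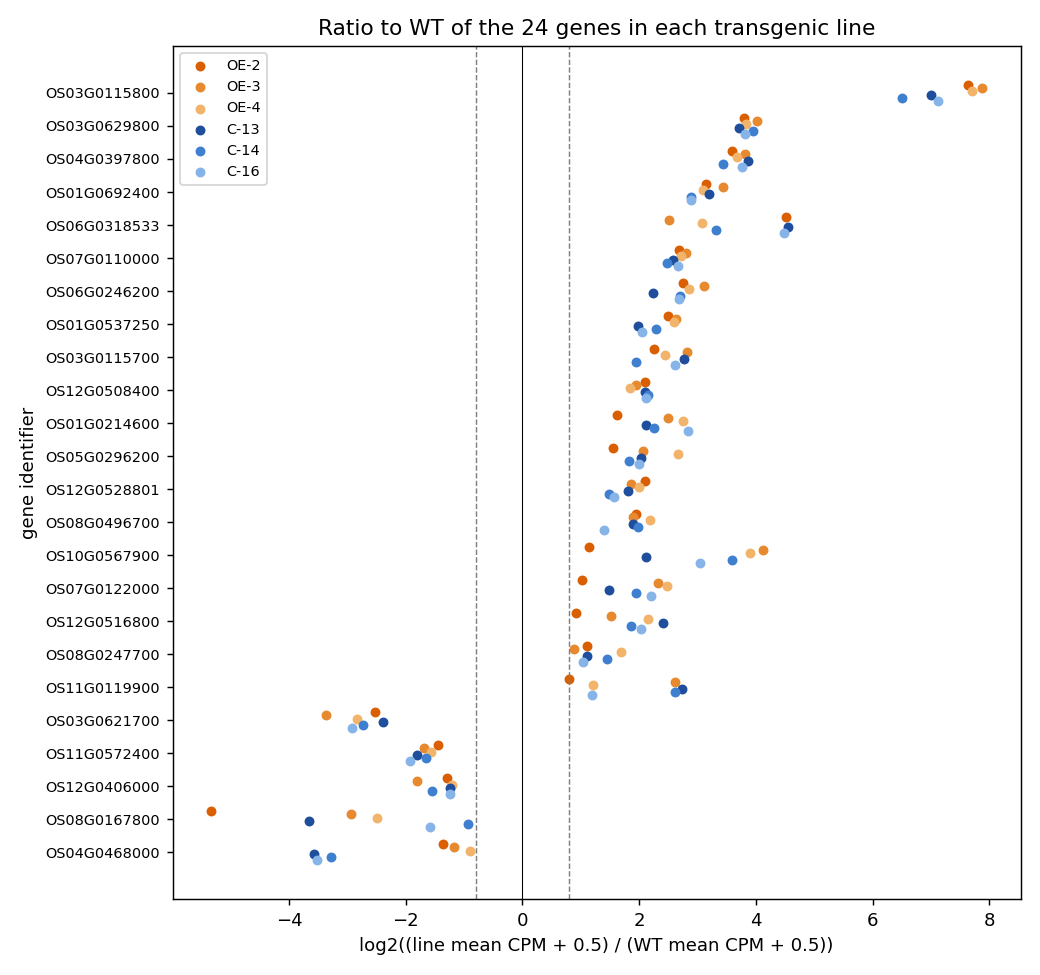
Log2 ratio of each transgenic line to WT (x axis, 0.5 CPM added to both means) for the 24 members (y axis), with 1 point per line; dashed lines mark the thresholds at 0.8 and -0.8. The 19 higher members lie to the right, led by OS03G0115800 at 6.50 to 7.87, and the 5 lower members to the left.

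The higher member with the largest log2 ratios, with 0.5 CPM added, was OS03G0115800 on chromosome 3. Its 3 WT libraries held 0.548, 0.400 and 0.504 CPM (10, 7 and 7 reads). The OE libraries held 228, 239 and 223 CPM in OE-3, 210, 187 and 216 in OE-4 and 209, 173 and 203 in OE-2. The CRISPR libraries held 130, 148 and 133 CPM in C-16, 126, 123 and 128 in C-13 and 130, 69.5 and 66.5 in C-14. Every transgenic library thus stood far above every WT library, and every OE library above every CRISPR library. The log2 ratio to WT was smallest in C-14, at 6.50, and largest in OE-3, at 7.87. The pooled transgenic counts, scaled by library totals, were 335 times those of WT (95% exact binomial interval 225 to 523, for counting error only). Within C-14, replicate 1 was at the level of C-13 and C-16, while replicates 2 and 3 were at about the same lower level.

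The next kept identifier before it, OS03G0115700, was also a member and was higher in every transgenic library. Its WT libraries held 1, 5 and 3 reads, or 0.0548, 0.285 and 0.216 CPM. Line means were 4.33 ± 1.1 CPM in OE-3, 3.24 ± 0.42 in OE-4, 2.78 ± 0.83 in OE-2, 4.17 ± 1.3 in C-13, 3.72 ± 0.99 in C-16 and 2.15 ± 1.1 in C-14 (SD, n = 3 libraries). The smallest log2 ratio was again that of C-14, 1.95, and the largest that of OE-3, 2.82. Whether reads of either gene were counted for the other was not tested; the strand setting and the treatment of overlapping genes were not stated by the submitters' labels.

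For 3 further members WT held at most 2 reads in all 3 libraries together. OS03G0629800 had 0, 0 and 1 read in WT and 82 to 159 reads in each transgenic library. Its line means were 8.0 ± 1.8 CPM in OE-3, 6.91 ± 1.2 in OE-4, 6.74 ± 0.94 in OE-2, 7.57 ± 1.6 in C-14, 6.85 ± 1.1 in C-16 and 6.38 ± 0.45 in C-13 (SD, n = 3). The highest line mean was 1.25 times the lowest. The pooled ratio of OS03G0629800 was 349, with an exact interval of 62.5 to 13782 that contains that of OS03G0115800. These intervals cover counting error only. They pool the reads of all lines and leave out variation between libraries and between lines. The genes were chosen by their ratios to WT, so the intervals describe a shift and do not test it.

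OS04G0397800 had 1, 0 and 1 read in WT and means of 5.39 to 7.40 CPM in the lines. Its libraries held 6.60, 8.09 and 7.51 CPM in C-13 and 6.25, 6.64 and 7.68 in C-16. C-14 replicate 1 stood lower, at 2.30 CPM (40 reads) against 6.51 and 7.36 in the other C-14 libraries, and was the lowest of the 18 transgenic libraries. The pooled ratio was 163 (exact interval 44.9 to 1343). OS05G0296200 had 1, 0 and 0 reads in WT and 15 to 54 in the transgenic libraries, with a pooled ratio of 83.2 (exact interval 14.9 to 3294). For the latter the line means ran from 1.02 ± 0.059 CPM in OE-2 to 2.81 ± 0.35 in OE-4.

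A WT count of 0 in a library allows up to 3 reads, which is 0.164 CPM in WT replicate 1, 0.171 in replicate 2 and 0.216 in replicate 3. Counts of 10 members averaged under 1 CPM in WT. The addition of 0.5 CPM therefore sets much of the size of their log2 ratios, and the ratios of these genes understate the pooled ratios.

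**Figure D2:**
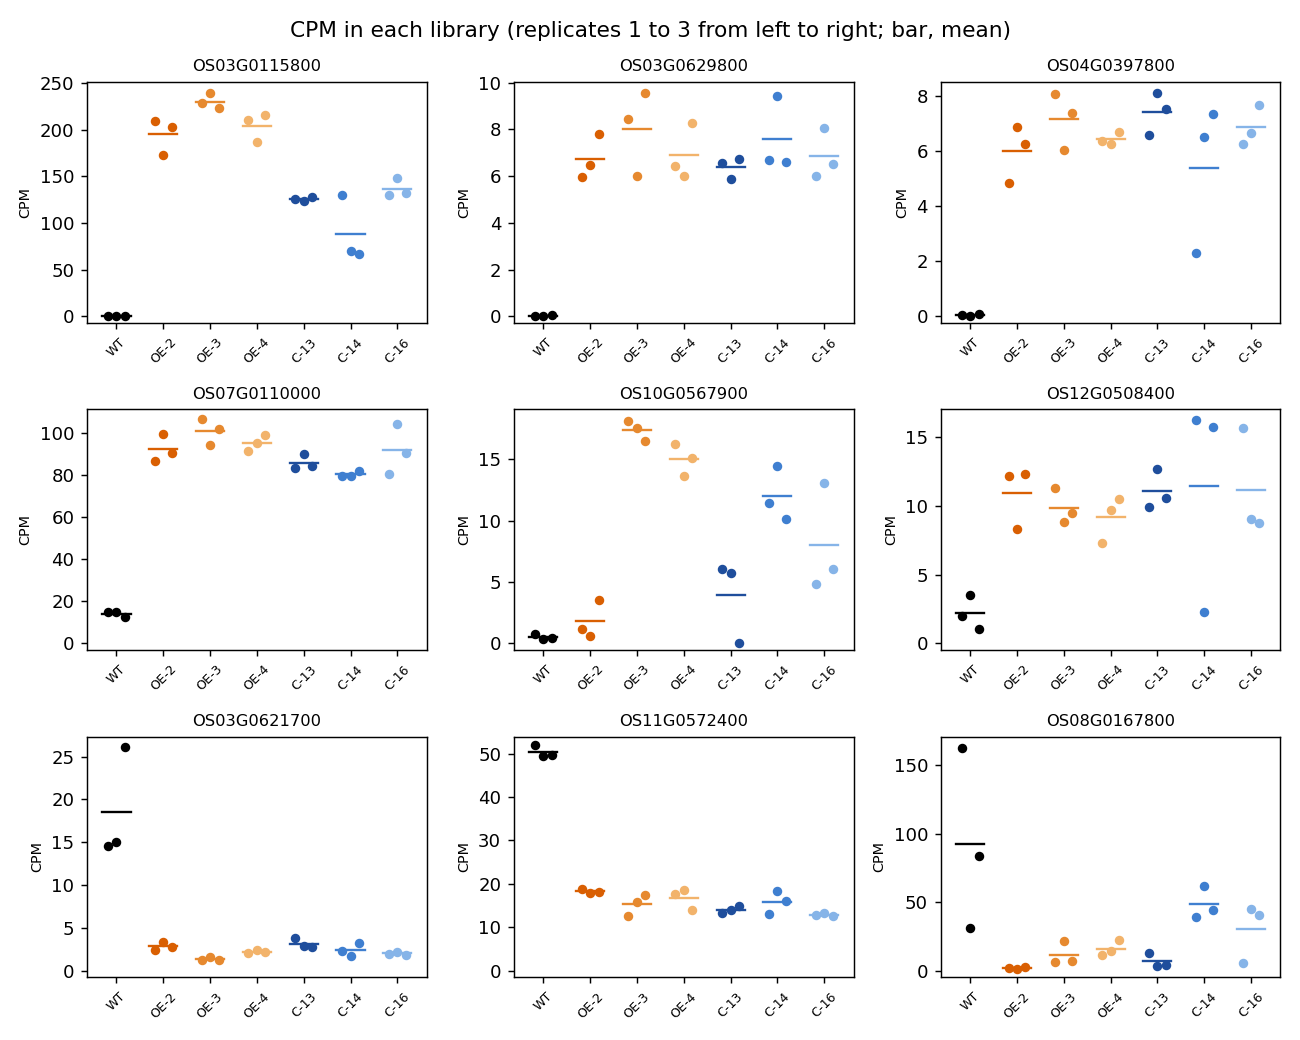
CPM in each of the 21 libraries (y axis, linear, own scale per panel) by line (x axis) for 6 higher members and 3 lower members; points are replicates 1 to 3 from left to right and bars are means of 3 libraries. WT is near 0 for OS03G0115800, OS03G0629800 and OS04G0397800, single libraries stand apart within lines for OS10G0567900 and OS12G0508400, and WT spans 30.9 to 163 CPM for OS08G0167800.

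Several higher members were measured in WT at a level that the transgenic libraries exceeded without overlap. OS07G0110000 held 14.7, 14.8 and 12.5 CPM in WT and between 79.3 and 106 CPM in the 18 transgenic libraries, with a median of 90.4. Its log2 ratio was between 2.48 (C-14) and 2.80 (OE-3). OS01G0537250 held 13.8, 13.5 and 8.86 CPM in WT and between 46.9 and 80.9 CPM in the transgenic libraries, with a median of 65.0. Both stood at several times WT in all lines, and for OS01G0537250 every OE library but OE-2 replicate 2 was above the highest CRISPR library.

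OS06G0246200 held 3.12, 3.43 and 1.59 CPM in WT and 12.01 to 29.4 in the transgenic libraries (median 21.5). OS01G0692400 held 0.274, 1.48 and 0.216 CPM in WT, where replicate 2 stood above the others, and 7.17 to 13.9 in the transgenic libraries (median 9.66). OS08G0496700 held 1.48, 1.37 and 1.66 CPM in WT and 3.68 to 9.53 in the transgenic libraries (median 7.01), with the lowest in C-16 replicate 3. The groups did not overlap for any of these. OS12G0528801 held 2.08, 1.37 and 1.15 CPM in WT and 4.04 to 9.07 in the transgenic libraries (median 6.61). OS01G0214600 held 0.877, 0.628 and 0.937 CPM in WT and 2.70 to 10.5 in the transgenic libraries (median 7.17), lowest in OE-2. Here too every transgenic library was above every WT library.

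Other higher members shared a direction but not a level among the lines. OS06G0318533 held 0, 1 and 5 reads in WT. Its line means were 14.1 ± 2.2 CPM in OE-2, 14.4 ± 0.61 in C-13 and 13.8 ± 1.5 in C-16, against 3.15 ± 0.50 in OE-3, 4.89 ± 2.7 in OE-4 and 5.84 ± 0.63 in C-14 (SD, n = 3). The higher and the lower levels each occurred in OE and in CRISPR lines, and the highest line mean was 4.57 times the lowest. OS12G0516800 had its lowest line mean in OE-2, 3.43 ± 1.0 CPM, and its highest in C-13, 10.6 ± 1.0, against 1.58 ± 0.53 in WT. OS07G0122000 held 21.3, 16.6 and 6.41 CPM in WT, and 35.2, 18.7 and 37.3 in OE-2, where replicate 2 lay within the WT range. Its highest line mean was 84.6 ± 23 CPM, in OE-4.

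In 3 further higher members single libraries of a line stood within or below the WT range while others did not. OS10G0567900 held 0.767, 0.400 and 0.432 CPM in WT and 18.1, 17.5 and 16.4 in OE-3. In C-13 it held 107 and 109 reads in replicates 1 and 2 and 1 read in replicate 3 (6.04, 5.77 and 0.0569 CPM). OE-2 stood at 1.16, 0.636 and 3.56 CPM, with replicate 2 in the WT range and replicate 3 the highest. OS11G0119900 held 5.64 and 8.64 CPM in OE-3 replicates 1 and 2 and 0.240 CPM (4 reads) in replicate 3, within the WT range of 0.219 to 0.457 CPM. OS12G0508400 held 16.2 and 15.7 CPM in C-14 replicates 1 and 3 and 2.30 CPM (36 reads) in replicate 2, between the WT values of 1.97 and 3.48.

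A within-line spread of this kind was not frequent in the table. With 0.5 CPM added, the highest library of a line was at least 3 times the lowest for 0.256% of the kept identifiers in C-13 and for 1.9% in OE-3. The share was 1.39% in WT, 0.64% in OE-2, 0.454% in OE-4, 0.768% in C-14 and 0.972% in C-16. Among the 24 members the numbers were 2 in C-13, 3 in OE-3, 1 each in OE-2, OE-4, C-14 and C-16, and 3 in WT. The last of the higher members, OS08G0247700, held 23.0, 15.6 and 14.3 CPM in WT. Its transgenic libraries held 25.7 to 66.1 CPM (median 40.2), and the lowest, OE-3 replicate 1, was 1.12 times the highest WT library.

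Of the 5 lower members, 3 had WT libraries that all lay above the transgenic ones and 2 had WT libraries that overlapped them. OS03G0621700 held 14.6, 15.1 and 26.1 CPM in WT and 1.20 to 3.84 CPM in the transgenic libraries (median 2.25). Its log2 ratio ran from -2.38 in C-13 to -3.36 in OE-3. OS11G0572400 held 51.9, 49.6 and 49.6 CPM in WT and 12.5 to 18.7 in the transgenic libraries (median 15.3), so the lowest WT library was 2.65 times the highest transgenic one. OS12G0406000 held 39.9, 40.0 and 34.4 CPM in WT and 7.79 to 17.1 in the transgenic libraries (median 15.2). For these 3 genes no transgenic library reached the WT range.

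OS08G0167800 held 163, 30.9 and 83.7 CPM in WT. Its transgenic libraries ran from 1.33 CPM in OE-2 replicate 2 to 61.5 in C-14 replicate 2, with line means of 1.81 ± 0.57 in OE-2 and 48.4 ± 12 in C-14 (SD, n = 3). All 3 libraries of C-14 and replicates 2 and 3 of C-16 were above the lowest WT library. OS04G0468000 held 14.2, 1.26 and 4.68 CPM in WT, a spread of 11.3-fold. It held 1.28 to 5.12 CPM in the OE libraries, all above WT replicate 2, and 0 to 6 reads in each CRISPR library. The 0 counts in C-13 replicate 3 and C-16 replicate 1 allow up to 0.171 and 0.158 CPM.

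Counted over all members, the transgenic and WT libraries did not overlap for 15 of the 19 higher members and 3 of the 5 lower ones. Over all kept identifiers, 0.186% had all 18 transgenic libraries above all WT libraries and 0.198% had them all below. The rule used these same libraries, so nothing further is read from the counts.

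The threshold cut through a continuous range of ratios. Just inside it on the higher side were OS12G0516800, OS08G0247700 and OS11G0119900, whose smallest log2 ratios over the lines were 0.92, 0.88 and 0.80. Just outside were OS12G0541700, OS10G0484300 and OS02G0617800, at 0.74, 0.70 and 0.65, each limited by C-14. On the lower side, in the line with the least change, OS12G0406000, OS08G0167800 and OS04G0468000 were just inside, at -1.21, -0.93 and -0.90. OS03G0608700, OS11G0578100 and OS11G0610900 were just outside, at -0.72, -0.72 and -0.68. OE-2 was the line with the smallest change for 7 of the 24 members and C-14 for 6, whereas OE-3 was the line with the largest change for 10.

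Since the 6 ratios share 3 WT libraries, the rule was recomputed without each WT library and with each one alone. Of the 24 members, 19 passed without each of the 3 WT libraries in turn, 16 higher and 3 lower. This concerns the WT libraries only, since OS10G0567900, among the 19, was lost without OE-2 replicate 3. With each WT library alone, 18 passed in all 3 cases, 15 higher and 3 lower. The 6 that did not were OS07G0122000, OS08G0247700, OS11G0119900, OS12G0516800, OS04G0468000 and OS08G0167800.

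Without WT replicate 1, OS04G0468000, OS08G0167800 and OS11G0119900 were lost. The smallest ratio of OS08G0167800 was then -0.24, and for OS04G0468000 it changed sign, to 0.16. With WT replicate 2 alone the highest ratio over the lines was 1.14 for OS04G0468000 and 0.64 for OS08G0167800. At least 1 line thus stood above that WT library. For OS04G0468000, at 1.26 CPM in that library, the OE line means were above it, at 2.31 to 3.37 CPM. The CRISPR line means were below it, at 0.107 to 0.243 CPM. Without WT replicate 3, OS07G0122000 and OS08G0247700 were lost, at 0.67 and 0.76. No member was lost without WT replicate 2.

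New identifiers entered as well. The lower set numbered 12 without WT replicate 2, 5 without replicate 1 and 7 without replicate 3, and the higher set 20, 24 and 18. With single WT libraries the sets were larger and unequal. WT replicate 3 alone gave 143 higher and 29 lower identifiers, WT replicate 1 alone gave 25 and 62, and WT replicate 2 alone gave 27 and 10. The higher members kept in these 3 cases were 18, 16 and 18 of 19. Of the 19 higher members, WT replicate 3 was the lowest WT library for 8, replicate 2 for 7 and replicate 1 for 4. These numbers include ties. OS03G0629800, with 0 reads in replicates 1 and 2, was counted for replicate 1. OS05G0296200, with 0 reads in replicates 2 and 3, was counted for replicate 2.

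**Figure D3:**
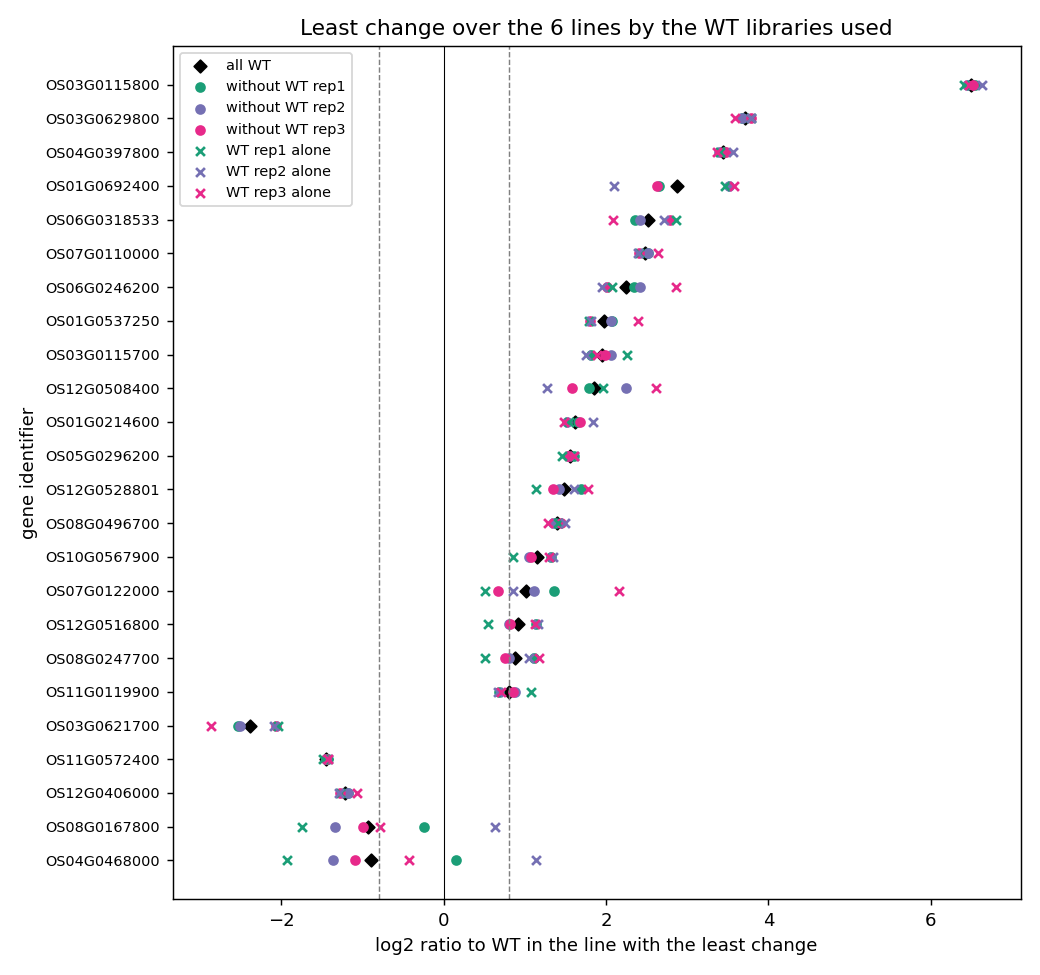
Log2 ratio to WT in the line with the least change (x axis) for each member (y axis), computed with all WT libraries (diamonds), without 1 of them (circles) or with 1 alone (crosses); dashed lines mark 0.8 and -0.8. The points of OS11G0572400 nearly coincide, while those of OS04G0468000 run from -1.92 to 1.14.

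By locus number the members were spread over 10 of the 12 chromosomes. Chromosomes 3 and 12 held 4 members each, and chromosomes 1 and 8 held 3 each. Chromosomes 2 and 9 held 0, although they carry 12.1% and 5.3% of the kept identifiers. Chromosome 12 held 16.7% of the members and 5.52% of the kept identifiers. With 24 members these shares rest on a few genes each.

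Neighbours were defined as members on 1 chromosome with at most 5 kept identifiers between them. By this definition a single run was found, the pair OS03G0115700 and OS03G0115800, with 0 kept identifiers between them and locus numbers 100 apart. The 10 kept identifiers on either side of the pair did not share the shift, and their median log2 ratios over the lines lay between -0.40 (OS03G0116300) and 0.34 (OS03G0116400). OS03G0115500, next to the pair, had a median of 0.05, and OS03G0116000, on the other side, 0.16.

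**Figure D4:**
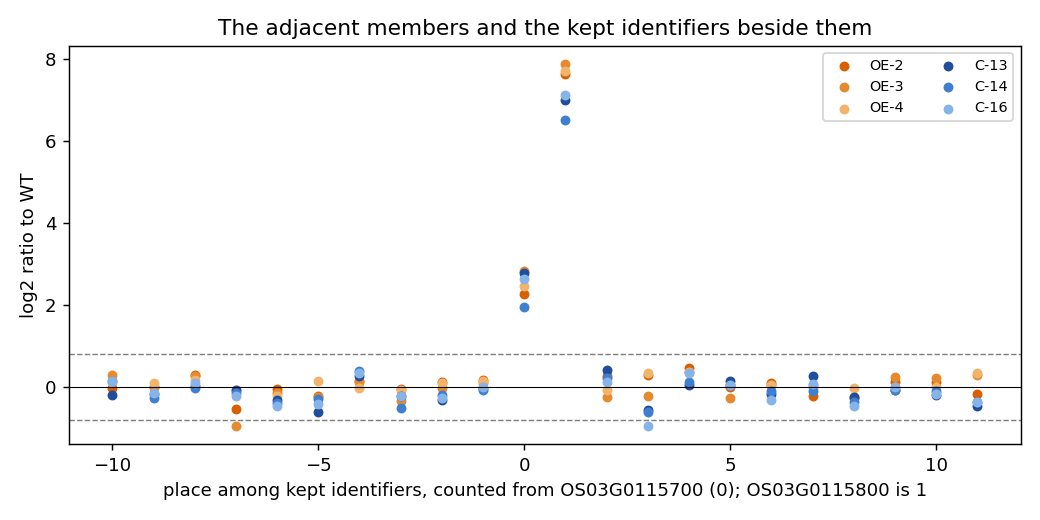
Log2 ratio to WT in each line (y axis) for kept identifiers in locus order around the adjacent members (x axis, place counted from OS03G0115700); dashed lines mark 0.8 and -0.8. OS03G0115700 and OS03G0115800 lie above the threshold in all lines, and none of the 20 identifiers beside them lies above 0.8 in any line. Below -0.8 lie OS03G0114300 in OE-3 (-0.96) and OS03G0116300 in C-16 (-0.95).

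The next closest members were OS12G0516800 and OS12G0528801, both higher, with 9 kept identifiers between them, and OS03G0621700 and OS03G0629800, with 15. The last pair were shifted in opposite directions, lower and higher. OS12G0508400 lay 26 kept identifiers from OS12G0516800, and OS07G0110000 lay 41 from OS07G0122000. For 20 of the 24 members, 0 of the 10 nearest kept identifiers had a median log2 ratio past the threshold in the same direction. The exceptions were the adjacent pair, OS08G0247700 with 1 such neighbour at 0.83, and OS04G0468000 with 1 at -2.35. Past the threshold in the opposite direction, OS07G0122000 had 2 neighbours and OS01G0214600 had 1. The share of all kept identifiers with such neighbours was not computed, so whether these numbers are usual is not known. Of the members, 3 of 24 (12.5%) had identifiers not ending in 00, against 6.69% of the kept identifiers.

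The rule used no contrast among the transgenic lines, so differences between them could be tested, although a gene with a line near WT could not become a member. Counts were summed per line and the 3 OE lines were compared with the 3 CRISPR lines by edgeR's quasi-likelihood test over 22553 genes, with Benjamini-Hochberg adjusted p-values. All 24 members were tested. Higher levels in the OE lines were called for 3 members and lower levels for 0, where 9.71% and 7.65% of all tested genes were called. The median log2 difference was 0.03 over the members and 0.01 over all genes tested.

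OS04G0468000, a member lower than WT in all lines, had the largest difference, 2.70 CPM in OE lines against 0.162 in CRISPR lines. The log2 difference was 4.05 (SE 0.31, edgeR adjusted p = 0.000466), with OE above CRISPR in 3 of 3 lines, and the call held in all 30 alternatives. OS03G0115800 was 1.69-fold higher in the OE lines, at 204 against 121 CPM (log2 difference 0.75, SE 0.17, edgeR adjusted p = 0.0217). Its call ended without OE-3 (adjusted p = 0.0507), without C-13 (adjusted p = 0.062) and without C-14 replicate 1 (adjusted p = 0.0551), and held in the other 27 of 30 alternatives.

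OS01G0537250 was 1.31-fold higher in the OE lines, at 72.1 against 55.2 CPM (log2 difference 0.39, SE 0.10, edgeR adjusted p = 0.0389). Its call ended without OE-2, OE-3, C-13 or C-16, where adjusted p was 0.0605, 0.0977, 0.139 and 0.135. It also ended without OE-2 replicate 3, OE-3 replicate 2 or C-14 replicate 3, at adjusted p between 0.0554 and 0.0581. In both of these genes the levels of the 3 OE lines were all above those of the 3 CRISPR lines. Line levels did not overlap for 5 of the 24 members and for 39.3% of all genes tested.

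For the other 21 members no difference between OE and CRISPR lines was called, which does not show that they were equal. Of these, 6 were called in 1 to 3 of the 30 alternatives. With single libraries as replicates and all 7 lines in the fit, without or with the replicate block, OS06G0318533, OS12G0516800 and OS08G0167800 were called lower in OE lines and OS12G0528801 higher. In that fit OS03G0621700 was called without the block only (edgeR adjusted p = 0.0465) and OS12G0406000 with it only (edgeR adjusted p = 0.0482). OS12G0516800 was also called without line OE-4 (edgeR adjusted p = 0.0298). The interval of the OE to CRISPR ratio was narrow for some. It was 0.912 to 1.23 for OS07G0110000, 0.795 to 1.23 for OS03G0629800, 0.731 to 1.23 for OS04G0397800 and 0.954 to 1.31 for OS11G0572400 (95%, from the edgeR standard error). For 9 members the interval lay within 1.5-fold in either direction. Among these, OS12G0508400 had an interval of 0.686 to 0.975, which does not contain 1 (edgeR adjusted p = 0.108). OS12G0528801, not among the 9, had 1.00005 to 1.52, which also leaves out 1 (edgeR adjusted p = 0.151). The interval was wide for OS10G0567900, 0.451 to 4.23, and for OS08G0167800, 0.0935 to 1.17. OS03G0115700, beside OS03G0115800, had an interval of 0.607 to 1.51, and whether the neighbours differ in this ratio was not tested.

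**Figure D5:**
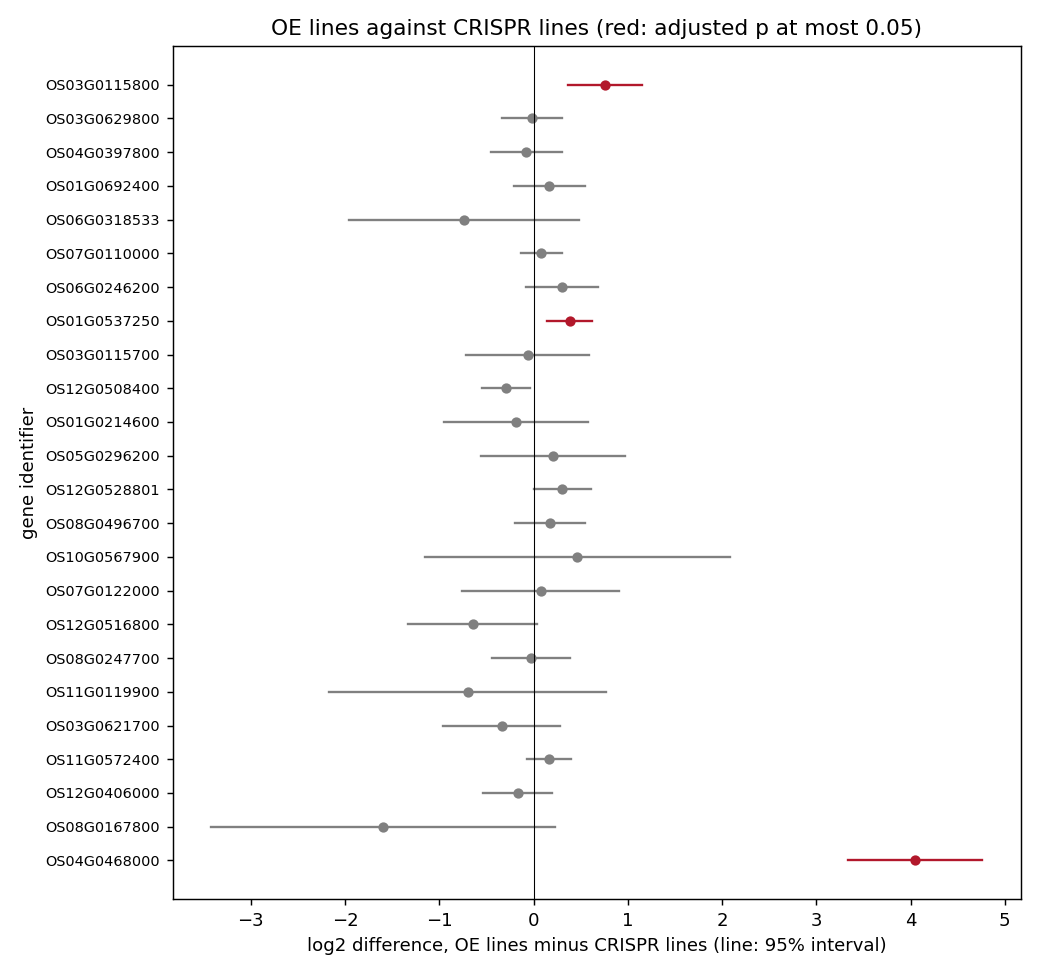
Log2 difference between OE and CRISPR lines (x axis; horizontal lines, 95% interval) for each member (y axis), from counts summed per line, 3 lines against 3; red marks an edgeR adjusted p of at most 0.05. OS04G0468000 stands apart at 4.05, and OS03G0115800 and OS01G0537250 are the other members called.

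A second test asked for any difference among the 6 transgenic lines, with single libraries as replicates. Of the 24 members 17 were called, 13 higher and 4 lower than WT, where 39.3% of 20891 genes were called. Among the called members were OS06G0318533 (edgeR adjusted p = 3e-05), whose highest line mean was 4.57 times the lowest, and OS10G0567900 (edgeR adjusted p = 0.00512), where that ratio was 9.72. OS08G0167800 (edgeR adjusted p = 0.000599) and OS07G0122000 (edgeR adjusted p = 0.000444) were called as well. The 7 members not called were OS03G0115700, OS03G0629800, OS04G0397800, OS07G0110000, OS12G0508400, OS12G0528801 and OS11G0572400, with ratios of highest to lowest line mean between 1.25 and 2.01. Of these, OS03G0629800, OS04G0397800, OS12G0508400 and OS11G0572400 were called in 0 of 24 alternatives. Of the 17 called, OS08G0496700 was called in 7 of 24 alternatives, OS01G0692400 in 14, OS12G0406000 in 17, OS08G0247700 in 22 and OS03G0621700 in 23, and the others in all 24.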

How the data were processed

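Leaf RNA-seq of 21 libraries was used. The values are unnormalized counts of reads for each identifier, in a table deposited by the authors. STAR 2.5.3a, Trim Galore, DESeq2, FastQC and the build IRGSP-1.0 appear, without roles, in the submitters' processing notes. Not given in the sources used here are the read counter, the strand setting and the handling of multiply mapped reads, and counts of near-identical, overlapping and antisense genes are therefore uncertain. Counts were divided by column totals (per 1000000) for the member rule.

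Tests among transgenic lines used edgeR 4.0.16 (quasi-likelihood, TMM, filterByExpr, R 4.3.3) over all genes, with adjusted p at most 0.05 called, and DESeq2 1.42.0 as an alternative. Scripts were tested on simulated data. The members, lists and tests were chosen with earlier results of these data known. Named genes were up to 12 members each way ranked by their least-changed line, up to 5 each way with the smallest adjusted p between OE and CRISPR lines, the closest neighbours, the targeted gene and 3 identifiers on either side of the threshold. The remaining members (OS08G0496700, OS10G0567900, OS07G0122000) were named after their values were seen. Alternatives covered the pseudocount, threshold, filter, scaling, single libraries and lines. Sequences of the members were not used here.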

Additional observations from a re-analysis of the deposited data

Results flagged for a closer look

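The levels of OE and CRISPR lines differed for 3 members by edgeR's quasi-likelihood test on counts summed per line. WT was not in that fit, so ratios to WT were not tested. These are 3 of 24 members, where 17.4% of all 22553 genes tested were called, so the number is no larger than over all genes. OS04G0468000 was higher in OE than in CRISPR lines by 4.05 on the log2 scale, although both stood below the WT mean, and the WT libraries themselves held 14.2, 1.26 and 4.68 CPM. OS03G0115800 was higher in OE lines by 0.75, with both far above WT. OS01G0537250 was higher in OE lines by 0.39, with both above WT. In each case the 3 OE lines were above the 3 CRISPR lines.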

How the results depend on the processing

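The number of higher members lay between 16 and 27 under other pseudocounts, thresholds, filters, scalings and left-out lines, against 19, and was 143 with WT replicate 3 alone. An equal number did not always mean the same genes. TMM scaling gave 19 higher identifiers, of which 18 were members, and OS11G0119900 was lost. That gene was also lost with a pseudocount of 1, DESeq2 size factors or line medians. OS12G0516800 was lost with a pseudocount of 1, and OS04G0468000 with line medians. The number of lower members, 5, was 3 at a threshold of 1, 10 at 0.6, 8 with a minimum of 1 CPM, 20 without line OE-4, and 62, 10 and 29 with WT replicate 1, 2 or 3 alone. Leaving out 1 library gave 16 to 24 higher and 4 to 12 lower members, the highest without WT replicates 1 and 2. Without OE-2 replicate 3, OS10G0567900, OS11G0119900 and OS12G0516800 were lost. OS08G0247700 was lost without OE-3 replicate 3, OS04G0468000 without OE-4 replicate 1 and OS11G0119900 without OE-4 replicate 2. With 1 library left out, the smallest ratio of OS04G0468000 ran from -1.36 (without WT replicate 2) to 0.16 (without WT replicate 1, a change of sign). With single WT libraries it ran from -1.92 (replicate 1) to 1.14 (replicate 2), and that of OS08G0167800 changed sign with replicate 2 alone (0.64). Members in runs numbered 4 instead of 2 when 10 identifiers were allowed between neighbours. OE against CRISPR lines had 3916 called genes and 3 called members; single libraries with WT also in the fit, which changes both the replicate unit and the lines fitted, gave 8910 and 8, and the same fit with the replicate block 8870 and 8. Counts of genes were 2211, 1719, 2108 and 1545 without lines OE-2, C-13, C-14 and C-16, and called members numbered 1 without OE-3 or C-13. Leaving out 1 library gave 2685 to 4883 genes and 2 to 3 members. Any difference among the lines was called for 6830 to 8670 genes and 13 to 17 members without 1 library, and with the replicate block for 17 members. Only 12 of 63 same-numbered pairs of libraries correlated over 0.1, and 10 of 21 libraries correlated best with their own number, so the numbers were not taken to pair samples. The cause of these changes was not tested.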

Other observations

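Identifiers with another prefix were outside the rule. Of these, 147 reached 2 CPM in at least 1 line; 0 were past the threshold on the higher side in all 6 lines and 1 on the lower side. That identifier, EPlOSAG00000044503, singled out after its values were seen, held 3.73, 0.571 and 3.03 CPM in WT and 0 to 1.07 CPM in the transgenic libraries. WT replicate 2 lay within the transgenic range.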
